A study of Mus with 4 samples.

Results

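The genes described are the 3 D-type cyclin genes *Ccnd1*, *Ccnd2* and *Ccnd3* and the genes of the kinases they activate, *Cdk4* and *Cdk6*, which are 5 of the 21887 protein-coding genes of the mouse annotation. They were chosen by name as the cyclin D and CDK genes of G1, with *Ccnd1* included also as a target of Wnt signaling, and all 5 were found. The measurement was a TBX3 ChIP-Seq profile, read within 1 kb of each gene's ends, inside the gene and up to 10 kb outside it.

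D-type cyclins are made when growth factors act on a cell, and they bind and activate CDK4 or CDK6. The kinases then phosphorylate the retinoblastoma protein and its relatives, which releases E2F transcription factors and lets the cell move from G1 into S phase. In liver, hepatocytes rest outside the cell cycle and *Ccnd1* is the D-type cyclin best known for rising when they enter it. *Ccnd1* is also a classical target of the β-catenin and TCF complex that Wnt signaling activates. TBX3 is a T-box transcription factor that acts mainly as a repressor, and *Tbx3* itself lies downstream of Wnt signaling in hepatocytes, so the comparison asks whether TBX3 chromatin signal lay at genes that drive G1.

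The study sequenced 2 TBX3 ChIP libraries, made with an antibody to the HA tag, and 2 Input libraries of sheared chromatin. All 4 came from primary mouse hepatocytes that carried the construct pT2-SVNeo-EF1-eGFP-P2A-Tbx3-HA, a Sleeping Beauty transposon in which the EF1α promoter drives GFP and HA-tagged *Tbx3*. The cells were selected with G418 and grown in a medium that holds CHIR99021, a GSK3 inhibitor that turns Wnt signaling on, with EGF and HGF. The model therefore shows TBX3 at overexpressed levels in cycling cultured cells, and the ChIP and Input libraries share the transgene, the selection and the medium. Neither a strain nor an age was among the labels. DNA from ChIP and Input carries no expression, so the cell type could not be checked against markers.

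The deposited data are a single track of −log10 p-values in the mm10 build. Each value, called the score here, says how improbable a pile of ChIP reads at that base is under a Poisson distribution whose mean is the level expected from Input. Values per library are not in the track, so no score carries a replicate error, and the comparisons below are ranks among genes rather than tests between groups. The gene table used here holds the start and end of each gene but neither strand nor exons, so both ends of every gene were read and are called the lower and the higher end by their coordinates. At the genome-wide expected level of 2.43 reads, a score of 2.44 stands for 7 reads over a base and 3.65 for 9 reads. After Benjamini-Hochberg adjustment of the MACS2 p-values over all bases of the 21 main chromosomes, an adjusted p of 0.05 corresponds to a score of 5.46.

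*Cdk4* and *Cdk6* each held a single position past that level, *Cdk4* just outside its lower end and *Cdk6* inside the gene toward its higher end, while the 3 cyclin genes held none. With each read pair counted once neither passed, and the adjusted p of both was 0.804 by Benjamini-Hochberg adjustment of the MACS2 p-values. Every window of the 5 genes then had this same value, so among the 5 genes it does not single out these positions. Whether reads were counted as pairs is unknown. With the expected level raised to chromosome depth the adjusted p of *Cdk4* was 0.0606 by the same adjustment, which does not pass either. The highest score within 1 kb of an end was 7.31 at *Cdk4*, 3.65 at *Ccnd3* and *Cdk6* and 2.44 at *Ccnd1* and *Ccnd2*. The median of the 5 was 3.65, against 2.44 over all protein-coding genes. A score of at least 3 was reached at the ends of 3 of the 5 genes and of 29.1% of all protein-coding genes. A score of at least 5 was reached at 1 of the 5, *Cdk4*, and at 3.6% of all genes. An adjusted p of at most 0.05 was likewise reached at the ends of *Cdk4* alone among the 5, beside 2.26% of all genes.

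Inside the genes, the highest score was 7.96 at *Cdk6*, 3.65 at *Ccnd1* and *Ccnd2*, 3.02 at *Ccnd3* and 2.44 at *Cdk4*, with a median of 3.65 against 3.02 over all genes. Long genes hold more bases and so more chances of a high score. The 5 genes run from 3754 bp at *Cdk4* to 190005 bp at *Cdk6*. A score of at least 3 was found inside 4 of the 5 and inside 61.9% of all genes, and a score of at least 5 inside *Cdk6* alone and inside 13.9% of all genes. An adjusted p of at most 0.05 was reached inside *Cdk6* and inside 7.41% of all genes.

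In the 10 kb outside each end, the highest score was 7.31 at *Cdk4*, 5.01 at *Ccnd3*, 3.65 at *Cdk6*, 3.55 at *Ccnd2* and 2.44 at *Ccnd1*. The median was 3.65, against 3.55 over all genes. A score of at least 3 was found outside 4 of the 5 and outside 74.8% of all genes. A score of at least 5 was found outside *Cdk4* and *Ccnd3* and outside 10.3% of all genes, while an adjusted p of at most 0.05 was reached outside *Cdk4* and outside 5.38% of all genes. *Cdk4* and *Cdk6* therefore account for every position of the 5 genes past the adjusted threshold.

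**Figure D1:**
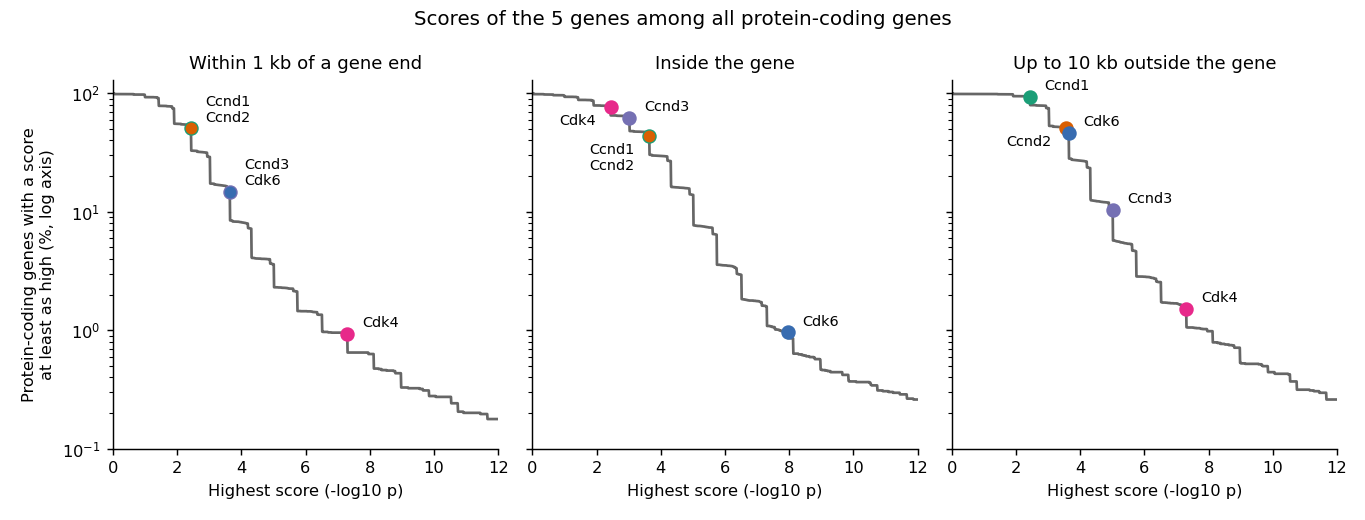
Share of all protein-coding genes with a score at least as high (percent, log axis) against the highest score (−log10 p) in 3 kinds of window, with the 5 genes as points on each curve. *Cdk4* at its ends and outside the gene and *Cdk6* inside the gene stand past a score of 7, at shares of 0.932, 1.52 and 0.959%. The cyclin genes stand at 3.65 or less, apart from *Ccnd3* at 5.01 outside the gene. Inside the genes, *Cdk4* at 2.44 stands below all of them.

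No called region lay at any of the 5 genes. A region had to keep a score of 5 or more over 200 bp, with breaks of up to 30 bp allowed. There were 125 of them on the main chromosomes, and 0.672% of protein-coding genes had such a region in the gene or within 10 kb of it. The *Cdk4* position formed a region only with a cutoff of 3, where it spanned 242 bp, or with a minimum length of 100 bp, where it spanned 101 bp. Under these settings 3.02% and 2.56% of protein-coding genes had a region in the gene or within 10 kb of it. The *Cdk6* position formed none under any setting tried, because its run was 86 bp long at a score of 5 and 172 bp long at a score of 3.

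*Ccnd1* (gene 12443) encodes cyclin D1 and lies on chromosome 7 of mm10 from 144929931 to 144939831. Its lower end scored 2.44 and its higher end 0.64, the lowest of the 10 gene ends examined. The 2.44 lay 813 bp outside the lower end, within the neighboring gene *LTO1*, which overlaps *Ccnd1*, and came from 7 reads over 2.43 expected (95% exact Poisson interval of the reads 2.81 to 14.4). This and the positions below were picked as the highest of their windows, so an interval of reads that lies above the expected level there is no test of enrichment. A score as high was found at the ends of 50.5% of all protein-coding genes, so by this score *Ccnd1* sat at the median of the genome. Many genes tie at this score, as 32.8% had a higher one. The share ran from 40.1% with chromosome depth to 75.6% with windows of 500 bp, and was 65.6% by mean score. Up to 10 kb outside the gene no score passed 2.44, and 93.1% of genes had one as high.

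Inside *Ccnd1*, the highest score was 3.65, from 9 reads at a position 4893 bp from the lower end. It belonged to 3 short runs of 18 to 45 bp with a score of at least 3, all within 113 bp of each other, which were the only such runs in the gene and its flanks. A score as high was found inside 43.9% of all protein-coding genes and inside 25.9% of genes of like length, within 25% of that of *Ccnd1*. The adjusted p at this position was 0.198 with Benjamini-Hochberg adjustment. No position in or near *Ccnd1* therefore passed the adjusted threshold in the scores as deposited.

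*Ccnd2* (gene 12444) encodes cyclin D2 and lies on chromosome 6 from 127125162 to 127152188. Its lower end scored 2.44, at a position 179 bp inside the gene, and its higher end 1.42, where the noncoding gene *9330179D12Rik* overlaps it. The lower end is thus level with that of *Ccnd1*. The highest score inside was 3.65, 2636 bp from the lower end, and 50.9% of genes of like length had one as high. The highest score outside was 3.55, 2200 bp below the lower end, and 51.3% of all genes had one as high, a share that was 32.7% with windows of 5 kb and 80.2% by mean score. Both came from 9 reads, and neither passed the adjusted threshold, with adjusted p of 0.198 and 0.208 by Benjamini-Hochberg adjustment. Within 1 kb of the inside position, Input itself raised the expected level to 8.34 reads at 147 to 149 bp from it, where 1 ChIP read was inferred. Its part in the result was not tested.

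*Ccnd3* (gene 12445) encodes cyclin D3 and lies on chromosome 17 from 47505051 to 47599689. Of the cyclin genes it had the highest score at its ends, 3.65 from 9 reads at a position 750 bp outside the lower end. A score as high was found at the ends of 14.7% of all genes, while the mean score over the windows gave 6.81%. The higher end scored 2.44, at a position 416 bp from an end of *Bysl*, a ribosome biogenesis gene that overlaps the higher end of *Ccnd3*. With windows of 500 bp, which leave out the position at 750 bp, the end score of *Ccnd3* was 1.90 and 53.9% of all genes had one as high.

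A higher score of 5.01 lay 2964 bp below the lower end of *Ccnd3*, at position 47502087, from 11 reads over 2.43 expected (95% exact Poisson interval 5.49 to 19.7). This position is inside *Taf8*, which encodes a subunit of the general transcription factor TFIID, 234 bp from its end, so it is nearer to that gene than to *Ccnd3*. The run at a score of at least 3 was 151 bp long and that at 5 was 13 bp long. Its adjusted p of 0.0687 by Benjamini-Hochberg adjustment did not pass 0.05, and 10.3% of all genes had a score as high within 10 kb. By the mean score over these 10 kb windows the share was 33.9%, and by reads over expected reads it was 45.6%.

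The highest score inside *Ccnd3* was low for the gene's length. It was 3.02 over 94639 bp, from 8 reads, and 98.7% of the 1585 genes of like length had a score as high, as had 55 of the 55 such genes on chromosome 17. The 55 include *Ccnd3* itself. Over all genes without regard to length the share was 61.9%, and it was 72.2% by mean score and 72.5% by reads over expected reads. Only 4 runs with a score of at least 3 lay inside it, of 8 in the gene and its flanks. The bases at 3 or more in the gene with its flanks were not few for its length, as 55.6% of genes of like length had a share as large.

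**Figure D2:**
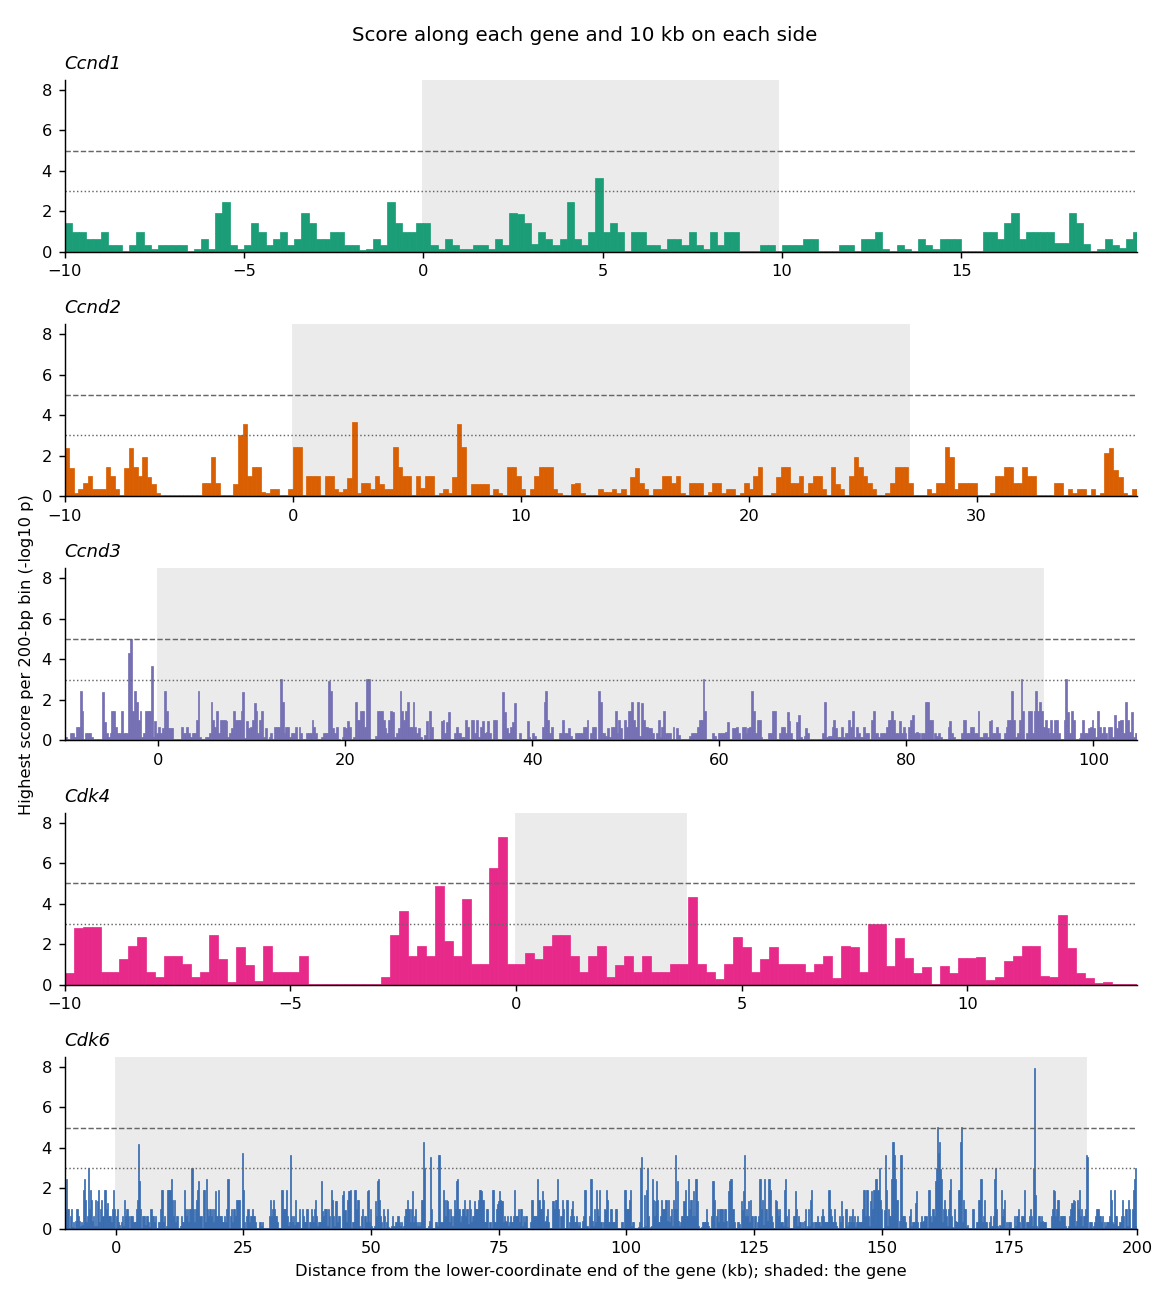
Highest score (−log10 p) in bins of 200 bp along each gene (shaded) and 10 kb on each side, against the distance from the lower end in kb, with lines at scores of 3 (dotted) and 5 (dashed). The scores of *Ccnd1* and *Ccnd2* stay at or under 3.65, *Ccnd3* reaches 5.01 outside the gene, *Cdk4* reaches 7.31 just below its lower end and *Cdk6* reaches 7.96 near its higher end.

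*Cdk4* (gene 12567) encodes the kinase that cyclin D1 is best known to activate and lies on chromosome 10 from 127063535 to 127067288. Its highest score of 7.31 was at position 127063157, 378 bp outside the lower end and inside no other gene of the table. It came from 14 reads over 2.43 expected (95% exact Poisson interval 7.65 to 23.5), which is 5.75 times the expected level. The run with a score of at least 3 spanned 127063111 to 127063265, or 155 bp, of which 66 bp in a row were at 5 or more. At *E2f7* and *E2f8*, whose sites the study examined, the highest positions held 31 and 23 reads, so that the *Cdk4* position held fewer reads than either.

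The *Cdk4* score ranked high in the genome. Of all protein-coding genes, 204 had a score as high at their ends, *Cdk4* included, which is 0.932% (95% Wilson interval 0.813 to 1.07%). The Wilson intervals given here treat the genes as a sample and leave out the error in a gene's own score. At a score of 6.51, which stands for 13 reads at the same expected level, the share was 1.35%. The mean score over the same windows gave 1.06%. The adjusted p at this position was 0.00263 with Benjamini-Hochberg adjustment of the MACS2 p-values, and 0.804 with each read pair counted once.

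Chromosome 10, which holds both *Cdk4* and *E2f7*, had the highest depth in this track. Its inferred ChIP depth was 1.41 times the autosome median, and the level expected from Input exceeded the genome-wide level over 72.2% of the chromosome, while elsewhere this share was 1.42 to 48.8%. At the ends of its genes, 49.6% had a score of at least 3 and 8.19% a score of at least 5. Chromosome 19, with 1.19 times the median depth, was close to it with 47.9% and 8.79%. Among the 1001 protein-coding genes of chromosome 10, 26 had a score as high as *Cdk4*, or 2.60% (95% Wilson interval 1.78 to 3.78%). With the expected level raised to the depth of the chromosome, the *Cdk4* score was 5.48 and its adjusted p 0.0606 by Benjamini-Hochberg adjustment, which no longer passes 0.05. The part of the chromosome's depth in the *Cdk4* score was not tested beyond these values.

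In the scores as deposited, 13 runs with a score of at least 3 lay in the flanks of *Cdk4*, 11 of them 378 to 2556 bp below the lower end, and none lay inside the gene. Joined across 150 bp, they made 6 clusters, of which 4 lay below the lower end at 378, 1148, 1647 and 2556 bp from it, with highest scores of 7.31, 4.20, 4.89 and 3.65. The one at 2556 bp also lies within 1 kb of an end of the neighboring gene *Marchf9*, whose end score is the same 3.65. At the highest position of each run, 4 of the 13 stayed at 3 or more with the expected level raised to chromosome depth. With each read pair counted once only the run at 378 bp did, and the next highest scored 2.79. In the scores as deposited, such bases took up 1.97% of the gene with its flanks, against 0.320% of the genome, and 0.845% of all genes and 3.90% of those of chromosome 10 had a share as large.

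The higher end of *Cdk4* scored 4.31, from 10 reads at a position 114 bp outside the gene. This position is inside *Tspan31*, which encodes a tetraspanin and overlaps the end of *Cdk4*, and lies 115 bp from an end of that gene, so it cannot be assigned to either. Other neighbors within 10 kb were *Cyp27b1*, which encodes the enzyme that makes active vitamin D, with 6.05 inside it, *Marchf9*, with 3.65 at its ends, and *Agap2*, with 7.31 inside it. The 6.05 and the 7.31 inside *Cyp27b1* and *Agap2* lay beyond the 10 kb. Within it, the 7.31 below *Cdk4* was in the only run that reached 5, and the part of *Agap2* there held a single run past 3, with 3.45.

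**Figure D3:**
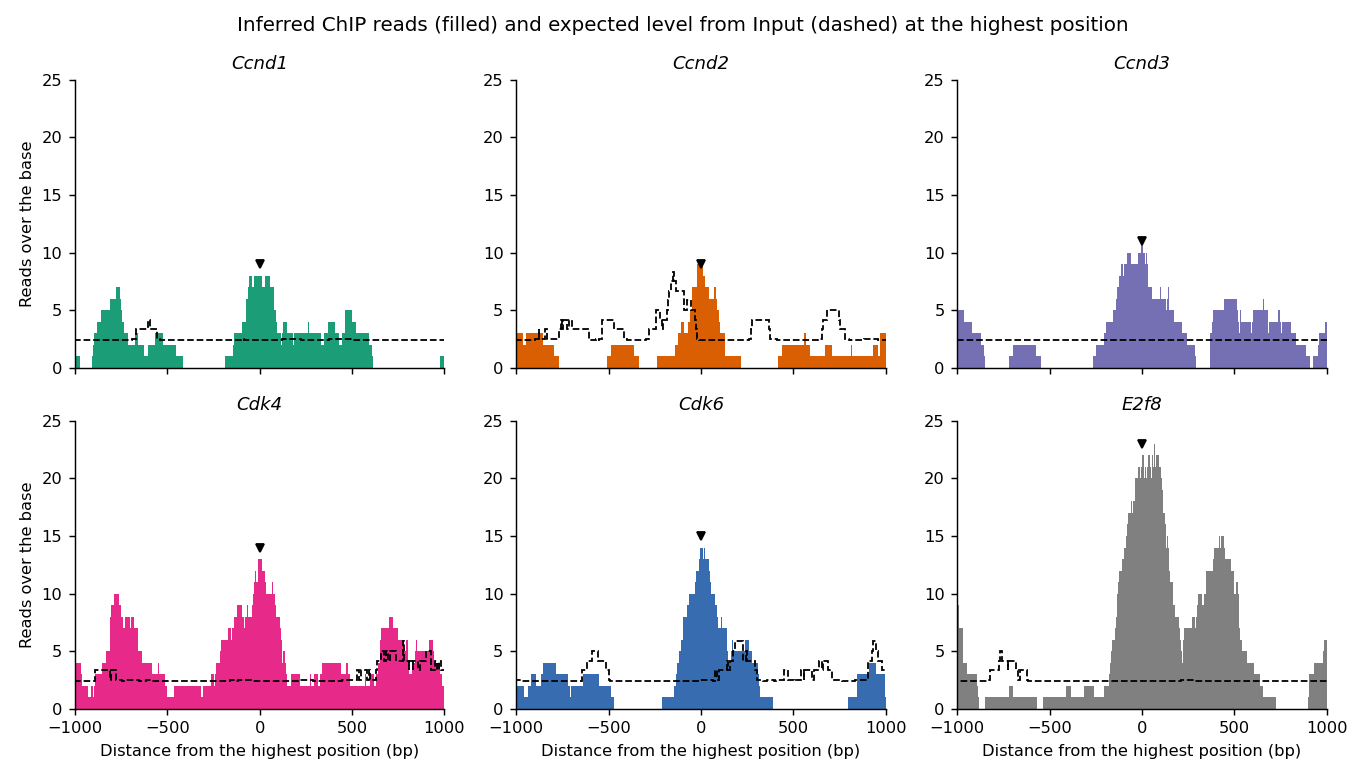
Inferred ChIP reads over each base (filled) and the level expected from Input (dashed) within 1000 bp of the highest position of each gene (triangle), with *E2f8* for comparison. The triangles stand at 9 reads for *Ccnd1* and *Ccnd2*, 11 for *Ccnd3*, 14 for *Cdk4*, 15 for *Cdk6* and 23 for *E2f8*.

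*Cdk6* (gene 12571) encodes the other kinase partner of the D-type cyclins and lies on chromosome 5 from 3341004 to 3531008. Its highest score, 7.96, was the highest of all windows of the 5 genes. The position, 3520880, is inside the gene and 10128 bp from its higher end, and held 15 reads over 2.50 expected (95% exact Poisson interval 8.40 to 24.7), which is 5.99 times the expected level. Whether it is exonic or intronic was not determined. The adjusted p was 0.000791 with Benjamini-Hochberg adjustment of the MACS2 p-values, and 0.000887 with the expected level raised to the depth of chromosome 5, which is 1.01 times the autosome median. With each read pair counted once it was 0.804, which does not pass and was then shared by every window of the 5 genes.

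As many as 210 protein-coding genes had a score as high inside them, or 0.959% (95% Wilson interval 0.839 to 1.10%). Among the 787 genes of like length, 23 had one, or 2.92% (95% Wilson interval 1.96 to 4.35%), and the median highest score of these long genes was 5.01. On chromosome 5, 3 of 41 genes of like length had a score as high, *Cdk6* included. By the mean score over the gene 25.8% of all genes were as high as *Cdk6*, and by reads over expected reads 28.8%.

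The ends of *Cdk6* were lower than its interior. The lower end scored 1.90 and the higher end 3.65, the latter from 9 reads at a position 188 bp outside the gene. A score as high as 3.65 was found at the ends of 14.7% of all genes, the same share as for *Ccnd3*, whose score was equal, while by reads over expected reads 43.1% of genes were as high as *Cdk6*. The noncoding gene *Gm36470* overlaps the lower end.

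Besides its highest position, *Cdk6* held 49 other runs with a score of at least 3 in the gene and its flanks. With the highest they made 50, 46 of them inside, in 24 clusters once joined across 150 bp, of which 7 reached a score of 4. At the highest position of each run, 29 of the 50 stayed at 3 or more with the expected level raised to chromosome depth. The others fell only from 3.02 to 2.98. With each read pair counted once, only the strongest run stayed at 3 or more, the next highest then scoring 2.79. A group of 14 of these runs lay 28687 to 29378 bp from the higher end, in clusters of 278 and 244 bp with highest scores of 5.01 and 4.31, and a further run 24401 bp from that end also reached 5.01. Bases with a score of at least 3 took up 0.640% of the gene with its flanks, and 6.48% of genes of like length had a share as large. Among the 5 genes, only *Cdk4* had a larger share.

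Both kinase positions, and the runs at all 5 genes, would score lower with each read pair counted once. Whether the libraries were sequenced as read pairs is not stated in the sources used here. Each library title names an R1 file alone, which does not settle it. Had the track counted both mates of each pair, counting each pair once would give 4.39 at *Cdk4* and 4.30 at *Cdk6*. None of the runs at the 3 cyclin genes, which held 8 to 11 reads, then stayed at 3 or more. The halving lowers high scores across the genome, so this loss is not particular to these genes. With this counting 0.927% of genes had a score as high at their ends as *Cdk4*. The counts of all genes were halved alike and rounded down, which adds ties, so this share is no test of the rank. For the ends of *Ccnd1* and *Ccnd2* the share rose from 50.5 to 73.1%, and for those of *Ccnd3* and *Cdk6* from 14.7 to 28.0%. The scores of *E2f7* and *E2f8* under the same counting were 11.8 and 8.14. Both still passed, with adjusted p of 2.22e-06 and 0.00286 by Benjamini-Hochberg adjustment of the MACS2 p-values, while *Cdk4* and *Cdk6* did not.

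The total of reads near the gene ends gave a measure that does not rest on a single base. Within 1 kb of both ends, *Cdk4* had 90 inferred reads over 75.6 expected, a ratio of 1.20 (95% exact Poisson interval 0.957 to 1.46). *Ccnd3* had a ratio of 0.873 (0.666 to 1.12), *Ccnd2* of 0.625 (0.449 to 0.842), *Cdk6* of 0.624 (0.449 to 0.835) and *Ccnd1* of 0.525 (0.373 to 0.730). The expected level never falls under the genome-wide level of 2.43 reads. The mean number of inferred ChIP reads over a base was 2.44 on chromosome 10 and at most 2.06 on the other chromosomes, and most genes lie below 1. Over all genes the median was 0.592, with quartiles of 0.470 and 0.722.

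In that order, *Cdk4* lay above the upper quartile with its whole interval, and 0.982% of all genes and 4.70% of those of chromosome 10 had a ratio as high. The median of chromosome 10 was 0.757, itself above the upper quartile of all genes. The interval of *Ccnd3* overlaps that of *Cdk4* and reaches below the upper quartile, and 8.98% of all genes had a ratio as high. *Ccnd1*, *Ccnd2* and *Cdk6* could not be told apart from each other or from the median gene at this depth, as their intervals overlap and hold it. *E2f7*, on the same chromosome as *Cdk4*, had a ratio of 1.43 (1.19 to 1.72), and *E2f8*, on chromosome 7, of 1.08 (0.857 to 1.35). Within their own chromosomes, 0.899 and 1.48% of genes had a ratio as high as *E2f7* and *E2f8*, beside the 4.70% for *Cdk4*. The median ratio was 0.551 on chromosome 7. The intervals of the ratios cover counting error only. They are too narrow if mates of a pair were counted apart, in which case that of *Cdk4* would be 0.869 to 1.59.

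Away from the ends, the ratios of the 5 genes spread in the same order only in part. Inside the genes they ran from 0.520 at *Ccnd3* to 0.997 at *Cdk4*, with a median of 0.597 over all genes, and *Cdk6* with 2316 reads had 0.664 (0.638 to 0.692). The ratio inside *Cdk4* was reached by 2.27% of all genes and by 7.49% of those of chromosome 10, whose median was 0.749. In the 10 kb outside, *Ccnd2* had the lowest ratio, 0.492 (0.423 to 0.567), which 83.8% of all genes and 97.1% of those of chromosome 6 reached or passed. *Cdk4* had the highest, 0.919 (0.829 to 1.02), which 0.649% of all genes and 4.20% of those of chromosome 10 reached, with a median of 0.754 on that chromosome. The ratio outside *Cdk4* is a sum over both flanks and includes the peak below its lower end.

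**Figure D4:**
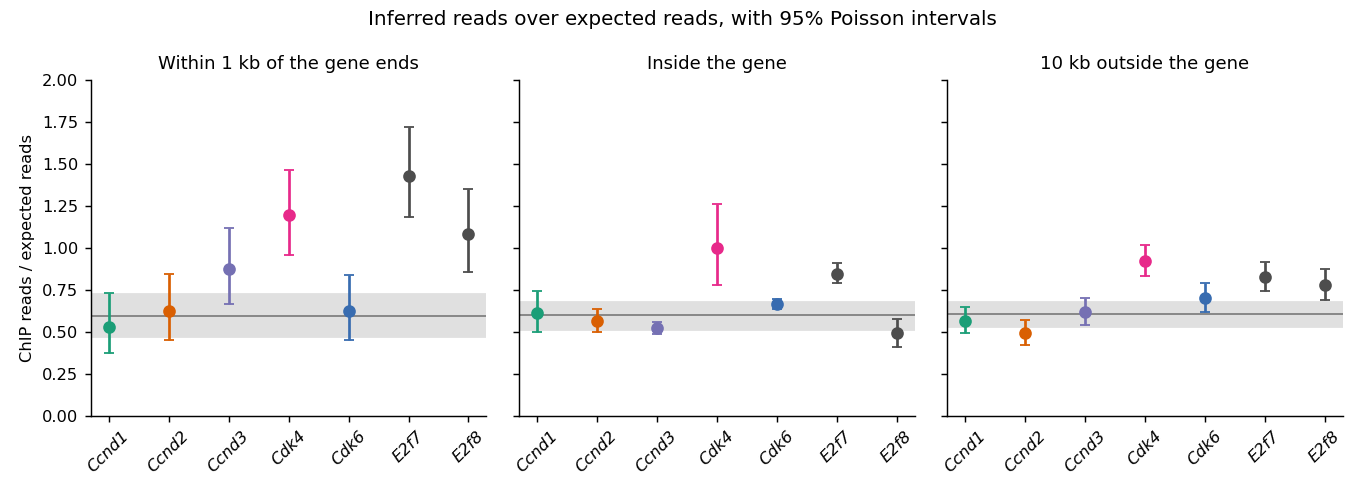
Inferred ChIP reads divided by the reads expected from Input in 3 kinds of window, for the 5 genes and for *E2f7* and *E2f8*, with 95% exact Poisson intervals as bars. The line and the shaded band are the median and the quartiles of all protein-coding genes (0.592, 0.470 and 0.722 at the gene ends), and *Cdk4* lies above the band in all 3 windows, as does the median gene of chromosome 10 (0.757 at the ends, 0.749 inside and 0.754 outside).

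The partners of cyclin D in the G1 pathway were counted against the 29.1% of all genes that reached 3 at their ends and the 3.6% that reached 5. Among 6 genes that act downstream at the G1 and S boundary, 1 reached a score of 3, *Ccna2*, which encodes the S-phase cyclin A2, with 3.02. Of the 3 genes of the kinase that activates CDKs, *Mnat1*, its assembly factor, scored highest with 3.65 and was the 1 past 3. Of 8 genes of pocket proteins and activator E2Fs, 3 reached 3, namely *Rbl2*, *E2f3* and *Tfdp1* with 3.02 each, and the median of each of these 3 lists was 2.44, level with that of all genes. None of the 3 lists held a gene at 5 or more.

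The lists of CDK inhibitor genes and of cyclin D turnover genes had medians above that of all genes. Of the 7 CDK inhibitor genes, 5 reached 3 and none reached 5, with a median of 3.02 and the highest score, 4.31, at *Cdkn1a*, which encodes the p53 target p21. Of 6 genes of cyclin D turnover, 4 reached 3 and 1 reached 5, with a median of 3.65. The latter was *Fbxo4*, an F-box protein known for marking cyclin D1 for destruction, with 5.75. These medians stand beside 2.44 over all genes, and 29.1% of all genes reached 3 and 3.6% reached 5. At the genome-wide expected level, 3.02 stands for 8 reads and 2.44 for 7. The lists were chosen with earlier results of these data known. Of 4 mitotic genes, 2 reached 3, with a median of 2.73 and the highest score of 4.31 at *Cdk1*, the kinase of mitotic entry, which is also on chromosome 10.

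*Ccnd1* was set beside 15 other genes that are Wnt targets or are marked by Wnt activity in liver. Of these, 6 reached 3 and 1 reached 5, beside 29.1% and 3.6% of all genes, and their median was 1.90, beside 2.44 for *Ccnd1* and for all genes. The 1 at 5 or more was *Sp5*, a transcription factor gene that Wnt signaling turns on, with 5.75. Over the 49 genes of the 7 lists together, 22 reached 3, or 44.9% beside 29.1% of all genes, and 2 reached 5, with a median of 2.44. None of the genes in these lists scored as high within 1 kb of its ends as *Cdk4*, while within 2 kb *Cdk2* reached the same 7.31.

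**Figure D5:**
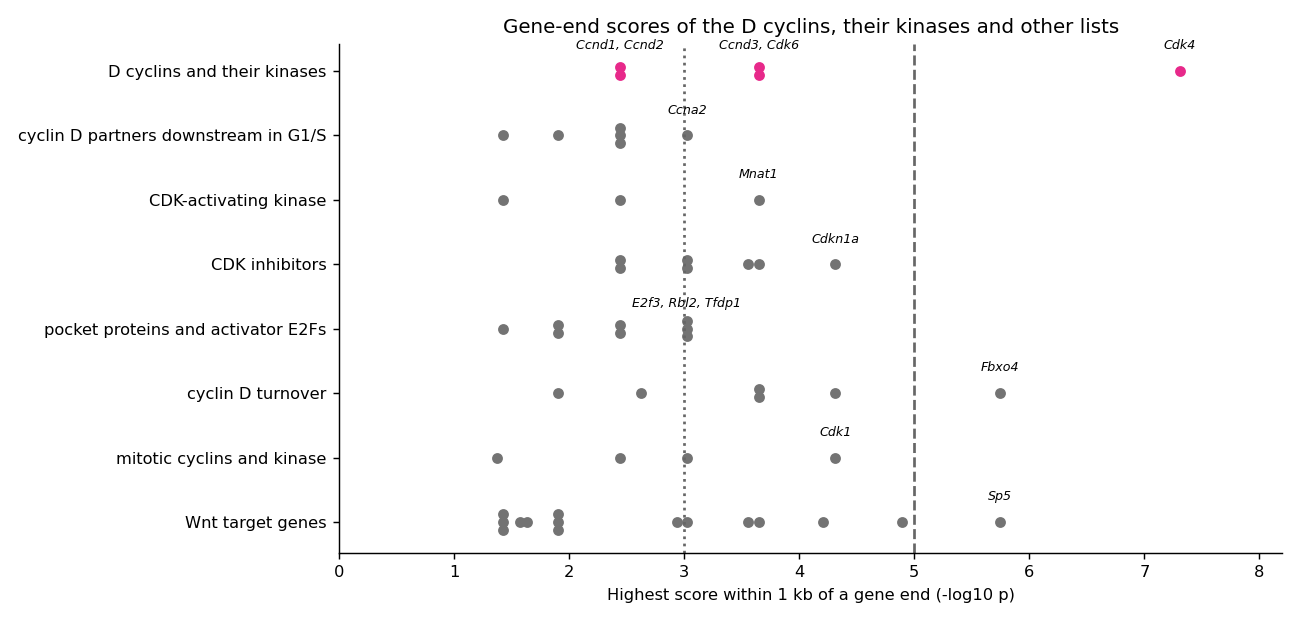
Highest score (−log10 p) within 1 kb of a gene end for each gene, 1 row per list, with lines at scores of 3 (dotted) and 5 (dashed) and the highest gene of each list named. *Cdk4* at 7.31 is the highest, followed by *Fbxo4* and *Sp5* at 5.75.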

How the data were processed

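TBX3 ChIP-Seq of mouse primary hepatocytes gave 2 ChIP and 2 Input libraries. The authors used Bowtie 2 for mapping, Samtools for sorting and MACS2 for the track. The submitters' processing notes name mm10 and no versions. The deposited column holds −log10 p-values that set ChIP read pileup against an expectation from Input. Which libraries entered it, and how duplicates were treated, is not given in the sources used here, and there were 0 further columns with values of single samples.

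From these −log10 p-values the highest score was read per window. Genes came from RefSeq GRCm38.p6, which shares the coordinates of mm10. The pileup and the expected level were inferred, for 99.9995% of bases, by finding which integer pileup and which Input-based level yield each score under a Poisson distribution, with changes along the chromosome kept few. They sum to 30083300 ChIP reads, and the depth per library is unknown. Counting each pair once took the pileup divided by 2, rounded down, over the level divided by 2. The inference and the reading of windows were tested on simulated data.

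The genes, lists and settings were chosen with earlier results of these data known. Genes named are the 5, *E2f7* and *E2f8*, genes overlapping a window or ending within 1 kb of a highest position, and in each list those at 5 or more or else the highest. *Cyp27b1*, *Marchf9* and *Agap2* overlap the 10 kb windows of *Cdk4*. Adjustment over all bases with its alternatives, single pairs and chromosome depth for called regions and for runs, ranks within a chromosome and ratios of reads were added after the data were examined. No sequence is shown, since none was used here. The tools were numba 0.67.0, scipy 1.17.1, matplotlib 3.10.9, pandas 2.3.3 and numpy 2.4.6 under Python 3.11.15.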

Additional observations from a re-analysis of the deposited data

How the results depend on the processing

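With a score threshold of 5 in place of 3, the count of the 5 genes fell from 3 to 1 at the gene ends, from 4 to 1 inside and from 4 to 2 outside, and that of the 49 listed genes from 22 to 2. Counting each read pair once left 1 gene at the ends, *Cdk4*, while the median end score of all genes fell from 2.44 to 1.45. The share of all genes that reached 3 with this counting is not given here. Called regions went from 0 to 1, at *Cdk4*, when the cutoff was 3 and, separately, when the minimum length was 100 bp, beside 3.02 and 2.56% of all genes. The other 11 counts stayed within 1.5 times or at 0, over windows of other sizes, bodies without their ends, a cutoff of 10, joined gaps, single pairs for called regions and chromosome depth. By Benjamini-Hochberg adjustment of the MACS2 p-values, the adjusted p at *Cdk4* rose from 0.00263 to 0.804 with single pairs and to 0.0606 with chromosome depth. By the same adjustment, that at *Cdk6* rose from 0.000791 to 0.804 with single pairs, while chromosome depth left it at 0.000887. The 0.804 was shared by every window of the 5 genes. The ranks given as shares of genes moved beyond their Wilson interval in 67 of 70 alternatives. That interval covers no error in a gene's own score. The shares ran for *Cdk4* at its ends between 0.541 and 2.60% and for *Cdk6* inside the gene between 0.672 and 25.8%. At the ends they ran between 6.81 and 53.9% for *Ccnd3* and between 9.06 and 43.1% for *Cdk6*, and outside the gene between 5.99 and 33.9% for *Ccnd3*, 32.7 and 80.2% for *Ccnd2*, 0.375 and 2.36% for *Cdk4* and 16.6 and 29.1% for *Cdk6*, whose share as reported was 46.6%. Inside they ran between 56.7 and 98.7% for *Ccnd3*, 40.3 and 61.7% for *Ccnd2*, 25.9 and 46.2% for *Ccnd1* and 3.60 and 69.4% for *Cdk4*, whose share as reported was 76.4%. At the ends of *Ccnd1* and *Ccnd2* they ran between 40.1 and 75.6% and between 32.8 and 73.1%, and outside *Ccnd1* between 69.3 and 97.6%. Ranks within a chromosome and reads over expected reads entered these ranges at the ends only. Among genes of the same chromosome, the shares outside *Cdk4* and *Cdk6* were 4.70 and 47.3%, both beyond their ranges. Among genes of like length on the same chromosome, those inside *Ccnd1*, *Ccnd2* and *Ccnd3* were 20.8, 63.6 and 100%, also beyond theirs. By reads over expected reads, some shares among all genes lay beyond the ranges as well. These were 63.9% outside *Ccnd1*, 83.8% outside *Ccnd2*, 45.6% outside *Ccnd3*, 2.27% inside *Cdk4* and 28.8% inside *Cdk6*.

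No paired analysis was possible because the track gives no value per sample, and for the same reason no library was left out. Motif searches and windows at transcription starts alone were not run, since neither sequence nor strand was used here. The unknown depth per library limits every value.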

Other observations

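*Cdk2*, which encodes the kinase partner of cyclins E and A and lies on chromosome 10, scored 2.44 within 1 kb of its ends and 7.31 within 2 kb of them, the same score as *Cdk4*. Within 2 kb, 1.07% of all protein-coding genes had a score as high. With chromosome depth the equal score of *Cdk4* was 5.48, and that of *Cdk2* is not given here. *Cdk2* was named after its values were seen.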
